A study of Mus musculus and Homo sapiens
Mus musculus with 16 samples.

Results

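Myc and Lratd2 are neighbouring protein-coding genes on mouse chromosome 15, and their listed chromatin interactions were compared between fetal forebrain of the embryonic stages E16.5 and E12.5, with 2 libraries per stage. An interaction was taken when either of its 10 kb bins overlapped the body of a gene: Myc at chr15:61985341-61990361 and Lratd2, also named Fam84b, at chr15:60818996-60826105 (mm10). This gave 131 interactions of Myc and 57 of Lratd2, 188 of the 106573 listed in the 4 libraries together. The members were chosen by their listed interactions in these same libraries, so the numbers below describe them, and the tests of stage are not independent of that choice. The working name for the pair was a shared domain, and the genes had 1 partner bin in common, in 1 library. They lie 1160 kb apart and the lists end at 1000 kb, so most partner bins could not be shared. Over all libraries, 9 of 70 Myc and 4 of 36 Lratd2 partner bins lay where a bin could be listed with both. The lists thus cannot settle the name, and the genes are described as having neighbouring sets of partners.

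The libraries are PLAC-seq, in which neighbouring DNA ends are ligated inside the nucleus and the products that carry a histone mark are enriched with an antibody, here against H3K4me3, a mark of active and poised promoters. Each deposited list holds bin pairs called by the authors and the number of read pairs behind each call. The E16.5 libraries held 35291 and 36794 interactions with 892987 and 911710 read pairs, against 18413 and 16075 interactions with 446855 and 405491 read pairs in the E12.5 libraries. The labels of these libraries name forebrain and the stage, and no strain, sex, genetic change or treatment of the embryos. Whether the replicates are separate litters is not stated, so the p-values cover only the spread between these libraries, which may be technical. The series' other 12 samples are Paired-seq DNA and RNA libraries of a cell-line mix, adult cortex and fetal forebrain, and were not used here. Sequencing depth is unknown, and a bin pair outside a list is not known to lack contact. In bulk tissue, fewer cells with a contact and a weaker contact per cell cannot be told apart.

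MYC is a transcription factor that binds DNA as a dimer with MAX and promotes growth and proliferation. Its gene lies in a long stretch poor in protein-coding genes, beside the long non-coding RNA gene Pvt1, and is known for control by distant enhancers that differ between tissues. Lratd2 encodes a protein with an LRAT domain, a fold first described in lecithin retinol acyltransferase, and its role in the forebrain is not well known.

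None of the partner bins of either gene overlapped a protein-coding gene. Of the 70 partner bins of Myc 62 held no annotated gene, and so did 29 of the 36 of Lratd2. Of the RefSeq (GRCm38.p6) promoters available, those inside a partner bin seen in both libraries of a stage belonged to 3 long non-coding RNA genes, all in partner bins of Myc. They are shown as annotated starts at the far end of a Myc contact. Other such bins overlapped the annotated genes Gm22521 and Tsg101-ps for Myc, and Gm7708 and Gm25875 for Lratd2, for which no promoter is printed. Each line gives 250 bases before to 50 after the gene's start, on the plus strand, with capitals for GATC, the site cut by MboI, the enzyme used in the ligation protocol; Gm38563 lies at chr15:61156907-61157206, Gm41333 at chr15:62668934-62669233 and Gm30113 at chr15:62953966-62954265.
Gm38563: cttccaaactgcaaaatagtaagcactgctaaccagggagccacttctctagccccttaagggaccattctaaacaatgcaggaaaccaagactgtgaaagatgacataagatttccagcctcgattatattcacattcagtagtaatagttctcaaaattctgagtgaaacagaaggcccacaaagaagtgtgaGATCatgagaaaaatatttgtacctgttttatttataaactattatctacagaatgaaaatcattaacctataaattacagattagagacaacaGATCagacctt
Gm41333: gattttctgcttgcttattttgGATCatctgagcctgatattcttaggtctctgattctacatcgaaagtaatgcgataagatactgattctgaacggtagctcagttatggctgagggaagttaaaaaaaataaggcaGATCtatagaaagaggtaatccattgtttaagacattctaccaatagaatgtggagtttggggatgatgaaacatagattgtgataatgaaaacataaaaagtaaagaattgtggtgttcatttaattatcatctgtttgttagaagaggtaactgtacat
Gm30113: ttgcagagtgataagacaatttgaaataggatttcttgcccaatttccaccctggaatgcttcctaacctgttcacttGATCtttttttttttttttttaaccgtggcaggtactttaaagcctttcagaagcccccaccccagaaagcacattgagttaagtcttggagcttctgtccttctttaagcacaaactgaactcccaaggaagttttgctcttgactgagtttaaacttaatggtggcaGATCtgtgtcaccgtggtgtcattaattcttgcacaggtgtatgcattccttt

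Each of the 3 holds GATC 2 times, and the motif reads the same on both strands. Of the 32851 promoters of that length in the RefSeq table, 48.0% hold it at least 1 time. Their GC content was 35.7% for Gm38563, 33.7% for Gm41333 and 40.7% for Gm30113. The table has no entry for Myc or Lratd2 themselves, whose promoters are not printed.

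Both genes had more listed interactions at E16.5 than at E12.5. Myc had 48 and 64 listed interactions in the E16.5 libraries, against 9 and 10 in the E12.5 libraries. Lratd2 had 19 and 34 at E16.5, against 2 and 2 at E12.5. The stages did not overlap for either gene, and the E16.5 replicates of Lratd2 stood further apart than those of Myc relative to their level. The mean was 56 ± 11.3 for Myc at E16.5 and 9.5 ± 0.71 at E12.5, and 26.5 ± 10.6 for Lratd2 at E16.5 and 2 ± 0 at E12.5 (SD, n = 2 each).

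All of these interactions fell on 1 bin per gene. The Myc bin was chr15:61980001-61990000, which holds 4660 bases of the gene, and the next bin, which holds 361, had 0 listed interactions in each library. The Lratd2 bin was chr15:60820001-60830000, which holds 6105 bases of Lratd2 and also part of the long non-coding RNA gene 9930014A18Rik, so the 2 genes cannot be told apart there. The bin with the other 1005 bases of Lratd2 had 0 in each library.

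**Figure D1:**
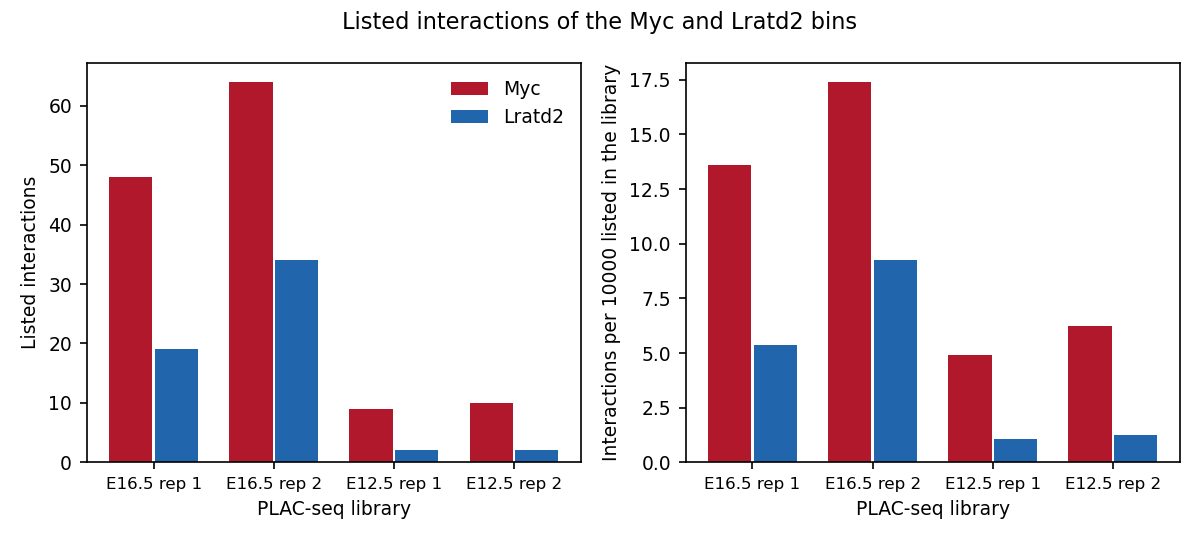
Listed interactions of the Myc (red) and Lratd2 (blue) bins in each PLAC-seq library, as numbers (left) and per 10000 interactions listed in that library (right); each bar is 1 library. Myc had 48 and 64 at E16.5 and 9 and 10 at E12.5, and both genes stayed higher at E16.5 after division by the length of the list.

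The E16.5 lists are longer, so the numbers were also read against list length. Per 10000 listed interactions, Myc had 13.6 and 17.4 at E16.5, against 4.89 and 6.22 at E12.5. Lratd2 had 5.38 and 9.24 at E16.5, against 1.09 and 1.24 at E12.5. When every list was limited to its 16075 interactions of lowest FDR, Myc had 19 and 31 at E16.5 and 9 and 10 at E12.5, and Lratd2 had 13 and 16 at E16.5 and 2 and 2 at E12.5. Both genes thus kept E16.5 numbers above those of E12.5 on lists of equal length.

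In edgeR's quasi-likelihood fit over 2448 gene-end bins (bins that hold either end of a protein-coding gene), with TMM scaling of the library totals, Myc rose 3.49-fold (log2 change 1.80, SE 0.26, adjusted p = 0.0092). Lratd2 rose 7.60-fold (log2 change 2.93, SE 0.51, adjusted p = 0.0142). In that fit 9.68% of all gene-end bins were called, 7.48% higher at E16.5 and 2.21% lower, and the median log2 change over bins was 0.19. Both E16.5 numbers lay above both E12.5 numbers in 59.0% of the bins and below them in 4.17%, so non-overlap alone is common. With the library total in place of TMM the calls were 156 higher and 88 lower, against 183 and 54, the median log2 change was 0.01, and Myc (1.63) and Lratd2 (2.75) still passed. Lratd2 met the minimum sum of 10 through its E16.5 numbers alone, as did 164 of the 183 bins called higher, while Myc met it at each stage. By size of change, Lratd2 ranked 209th and Myc 374th of the 2448 bins.

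These calls rest on counting neighbouring partner bins separately. With each cluster of neighbouring interactions counted a single time, Myc had 14 and 16 at E16.5 against 5 and 6 at E12.5 (log2 change 0.79, adjusted p = 0.583) and Lratd2 7 and 14 against 1 and 2 (2.09, adjusted p = 0.438), and edgeR then called 0 of 887 bins, 89 of which had an unadjusted p under 0.05. With read pairs in place of interactions the adjusted p was 0.249 for both genes, over all bins of any kind 0.0588 for Myc and 0.0642 for Lratd2, and with DESeq2 0.0241 for Myc and 0.0540 for Lratd2.

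**Figure D2:**
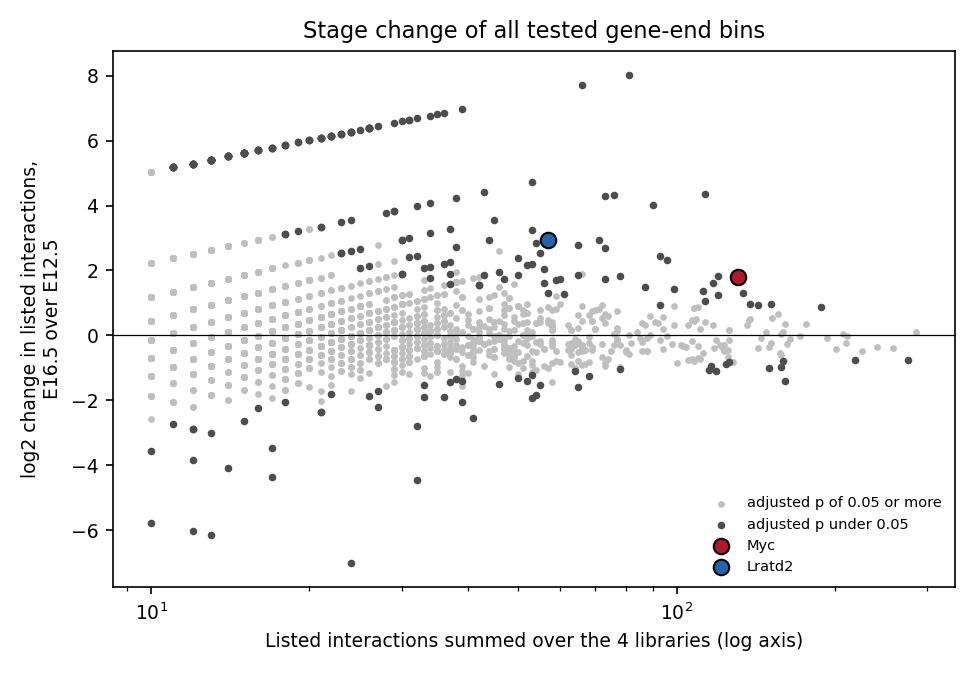
Change in listed interactions between E16.5 and E12.5 (vertical axis, log2, E16.5 over E12.5) against the number summed over the 4 libraries (horizontal axis, log scale) for 2448 gene-end bins; dark points have an adjusted p under 0.05. Myc (red, log2 change 1.80) and Lratd2 (blue, 2.93) lie in the upper right part, and the rising lines of points at the top are bins with 0 or few interactions at E12.5.

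Every interaction listed between the outermost partners of the genes, chr15:59860001-62990000, had the Myc bin or the Lratd2 bin at one end. Within this stretch of 3130 kb, 67 and 98 interactions were listed at E16.5 and 11 and 12 at E12.5, and in each library 0 of them joined any other pair of bins. The enrichment for H3K4me3 favours pairs with a marked bin, so other contacts in this stretch could go unlisted. Of its 313 bins, 105 were a partner of Myc or Lratd2 in at least 1 library. Just 1 partner bin had a listed interaction with a bin elsewhere. The farthest Lratd2 partner, chr15:59860001-59870000, was also listed with the bin of Trib1, a pseudokinase gene, with 25 and 22 read pairs at E16.5, and was not listed with it at E12.5.

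The partners of Myc fell into a short stretch on the Lratd2 side and a long one on the other side. On the Lratd2 side lay 9 partner bins, chr15:61100001-61190000, 800 to 880 kb from Myc. They gave 7 and 9 interactions at E16.5 and 4 and 5 at E12.5. On the far side lay 61 partner bins, from a bin inside Pvt1, 220 kb away and listed in E16.5 replicate 2 alone, to the bin that ends at 62990000, 1000 kb away. They gave 41 and 55 interactions at E16.5 and 5 and 5 at E12.5.

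The number on the far side was thus 5.86 and 6.11 times that on the Lratd2 side at E16.5, against 1.25 and 1.00 times at E12.5. The values do not overlap between stages, and the two-sided exact permutation p was 0.333, the smallest that 2 libraries against 2 allow. No such ratio was taken for other bins or on lists of equal length. How often other bins show such non-overlap was therefore not tested. Read pairs summed to 622 and 835 on the far side and to 144 and 182 on the Lratd2 side at E16.5. At E12.5 they summed to 57 and 59 on the far side and to 58 and 63 on the Lratd2 side.

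All 17 Myc partner bins seen at E12.5 were listed at E16.5 too. Of the 70 Myc partner bins, 53 were listed at E16.5 and not at E12.5, and 0 at E12.5 alone. Over the 58543 different bin pairs of all 4 lists, 57.3% occurred at E16.5 alone and 12.4% at E12.5 alone. On the Lratd2 side 7 of 9 bins were listed at both stages, and on the far side 10 of 61. Replicates shared 42 Myc partner bins at E16.5 and 2 at E12.5, and the 2 shared at E12.5 lay on the Lratd2 side.

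The far side was filled unevenly. At 800 to 1000 kb, 18 of 21 partner bins were listed in both E16.5 libraries, and the numbers were 19 and 20 at E16.5 and 4 and 4 at E12.5. At 500 to 790 kb, 11 of 24 were listed in both E16.5 libraries, with 14 and 21 interactions at E16.5 and 0 and 0 at E12.5. At 200 to 490 kb it was 6 of 16, with 8 and 14 at E16.5 and 1 and 1 at E12.5. The deposited lists end at 1000 kb, and the outermost bin within that limit was a Myc partner in both E16.5 libraries, with 10 and 9 read pairs. Partners beyond it could not be listed.

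**Figure D3:**
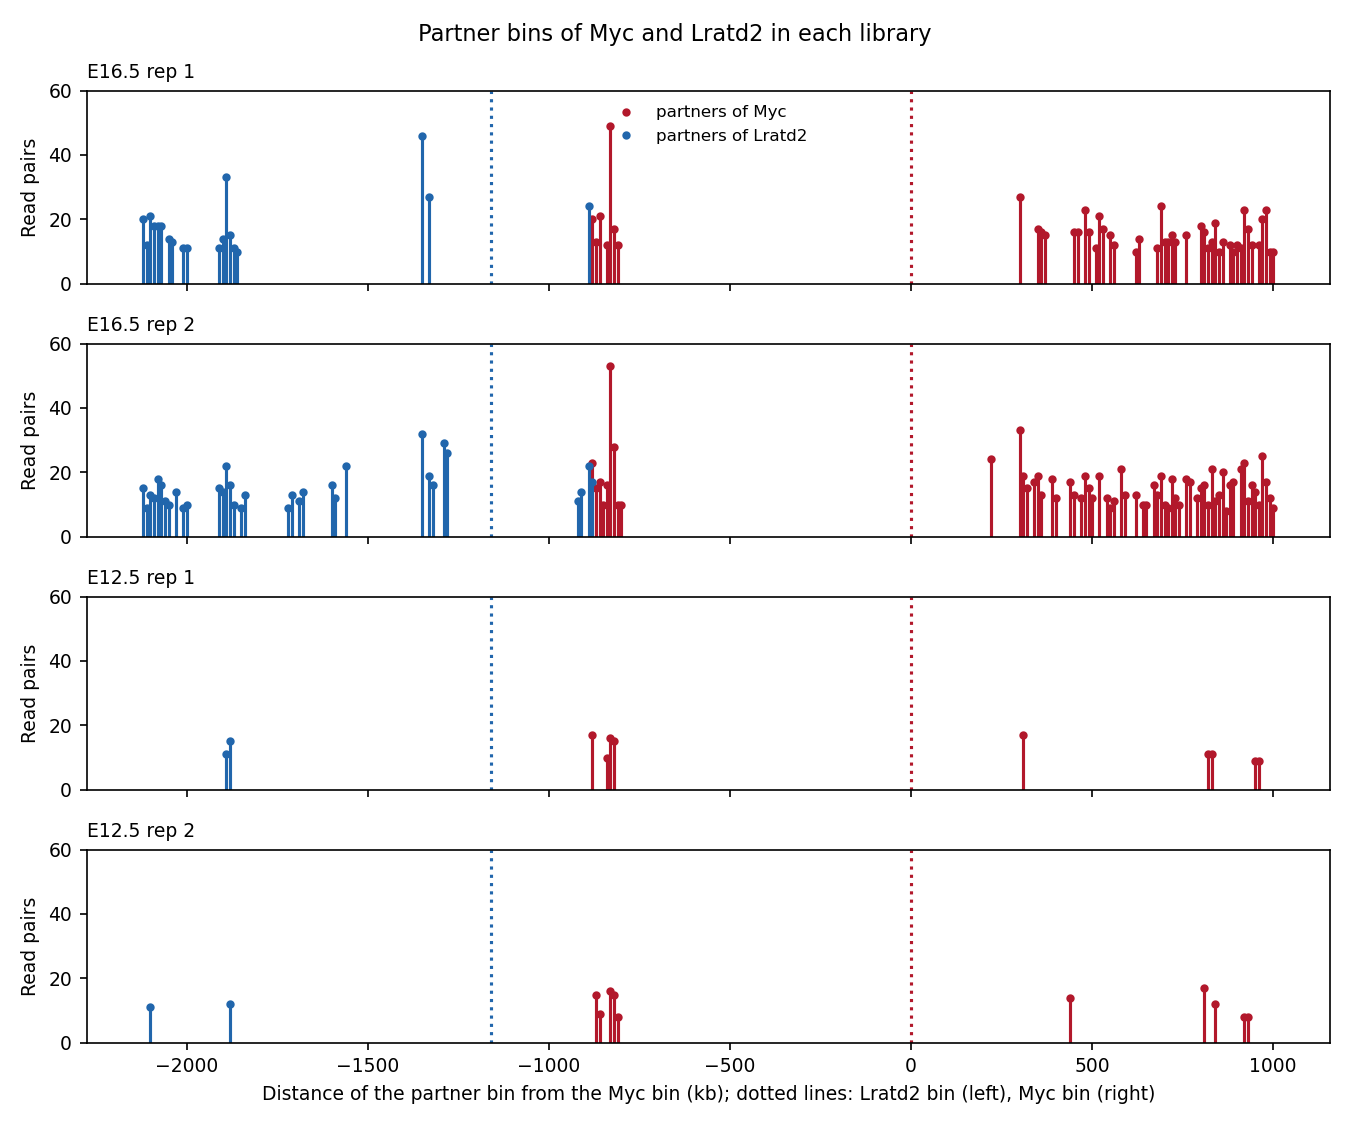
Read pairs (vertical axis) of each listed interaction of Myc (red) and Lratd2 (blue) by the distance of the partner bin from the Myc bin in kb (horizontal axis), with 1 panel per library and dotted lines at the Lratd2 bin (left) and the Myc bin (right). The Myc partners 800 to 880 kb away on the Lratd2 side appear in each library, while the far side holds 41 and 55 partners at E16.5 and 5 and 5 at E12.5.

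Lratd2 had most of its partners on the side away from Myc. In the farthest stretch, chr15:59860001-60150000, 680 to 960 kb away, 20 partner bins gave 16 and 18 interactions at E16.5 and 2 and 2 at E12.5. A middle stretch of 7 bins, 400 to 560 kb away, was listed in E16.5 replicate 2 with 7 interactions and in the other libraries with 0. The nearest 5 bins, 120 to 190 kb away, gave 2 and 5 interactions at E16.5 and 0 and 0 at E12.5. On the Myc side, 4 bins at chr15:61060001-61110000, 240 to 280 kb away, gave 1 and 4 at E16.5 and 0 and 0 at E12.5. The middle stretch held the largest part of the difference between the E16.5 replicates. All 3 Lratd2 partner bins seen at E12.5 were listed at E16.5 as well, and 33 of the 36 were listed at E16.5 alone, a class that held 57.3% of all listed bin pairs.

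The partner sets met but hardly overlapped. Myc and Lratd2 lie 1160 kb apart, beyond the 1000 kb limit of the lists, so a contact between the 2 genes could not be listed. A bin could be listed with both only within chr15:60980001-61830000, 85 bins that lie 20 to 1000 kb from each gene. Of these 85, 12 were a partner of either gene and 73 of neither. The 12 sat together at chr15:61060001-61190000, the Lratd2 partners at the lower end and the Myc partners at the upper end. The shared bin, chr15:61100001-61110000, was listed in E16.5 replicate 2 with 23 read pairs for Myc and 17 for Lratd2. In E16.5 replicate 1 the same bin had 20 read pairs for Myc and was not listed for Lratd2, whose nearest partner was the adjacent bin. With 1 bin of tolerance, 1 and 2 Myc partners lay at a Lratd2 partner at E16.5, and 0 and 0 at E12.5.

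Few gene pairs at such distances shared a partner bin, and Myc with Lratd2 was among those that did. The pairs were not matched to Myc and Lratd2 for their number of listed interactions. Among 1450 pairs of tested gene-end bins 1000 to 1300 kb apart, 3.31% shared a partner in E16.5 replicate 2 and 4.14% in any library. The pair with a partner bin shared in all 4 libraries was Foxo1, a forkhead transcription factor gene, with the bin of Nhlrc3 and Proser1 on chromosome 3, which shared 4 and 3 bins at E16.5 and 1 and 1 at E12.5. Next by the sum over libraries came Sdc3 with Ptpru (5 and 5 at E16.5, 2 and 1 at E12.5), Sox11 with Dcdc2c (3 and 8 at E16.5, 0 and 1 at E12.5), Sdc3 with Mecr (4 and 7 at E16.5, 0 and 0 at E12.5) and Chrna1 with the bin of Evx2 and Hoxd13 (2 and 3 at E16.5, 1 and 2 at E12.5). Myc with Lratd2 shared 0 and 1 at E16.5 and 0 and 0 at E12.5.

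The contact with the most read pairs was that of Myc with chr15:61150001-61160000, 830 kb away, the bin that holds the Gm38563 start printed above. It had 49 and 53 read pairs at E16.5, against 16 and 16 at E12.5. The stages did not overlap, and the replicates differed by little. Its count rose 2.47-fold with TMM scaling (log2 change 1.30, SE 0.29, and in edgeR over the 6875 contacts listed in all 4 libraries an adjusted p = 0.00139). Of those contacts 10.5% were called, 5.88% higher at E16.5 and 4.58% lower. Both E16.5 counts lay above both E12.5 counts in 50.7% of them and below in 7.87%. The call ended with the authors' expected count as an offset (adjusted p = 0.0890), with DESeq2 (adjusted p = 0.0783) and over contacts listed in at least 1 library of each stage (adjusted p = 0.651). In that last fit a contact outside a list entered as if it had no read pairs, although its count is unknown. It therefore cannot decide whether the call holds.

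The authors' expected counts for this contact were 2.93 and 2.35 at E16.5 and 2.01 and 1.75 at E12.5. The count was thus 16.7 and 22.5 times the expected count at E16.5, against 7.94 and 9.16 times at E12.5. By that ratio it ranked 79th of 35291 and 22nd of 36794 interactions at E16.5, and 842nd of 18413 and 376th of 16075 at E12.5. The authors marked it as the summit of its cluster in each library.

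The bin next to it, chr15:61160001-61170000, 820 kb from Myc, was also listed in all 4 libraries. It had 17 and 28 read pairs at E16.5, against 15 and 15 at E12.5 (log2 change 0.22, SE 0.31, adjusted p = 0.754 by edgeR), which did not pass the threshold. The single Lratd2 contact listed in all 4 libraries, with chr15:60100001-60110000, 720 kb away, had 15 and 16 read pairs at E16.5, against 15 and 12 at E12.5 (log2 change -0.16, SE 0.29, adjusted p = 0.845 by edgeR). Of the 3 contacts that could be tested, 1 passed the threshold and 2 did not.

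**Figure D4:**
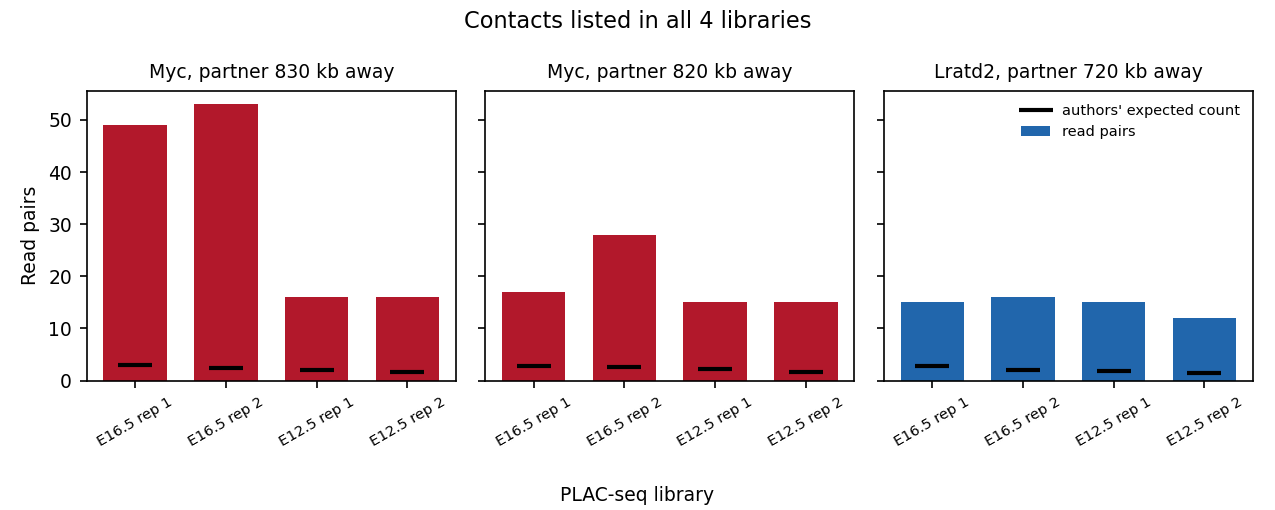
Read pairs (bars) and the authors' expected count (black marks) in each library for the 3 contacts of Myc and Lratd2 listed in all 4 libraries. The Myc contact 830 kb away had 49 and 53 read pairs at E16.5 and 16 and 16 at E12.5, and the other 2 lay between 12 and 28 in each library.

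The remaining strong contacts were not listed in every library and were not tested. Myc with the shared bin, 880 kb away, had 20 and 23 read pairs at E16.5, and 17 in E12.5 replicate 1. Myc with chr15:62280001-62290000, just beyond the end of Pvt1 and 300 kb away, had 27 and 33 at E16.5 and was not listed at E12.5. Myc with chr15:62900001-62910000, 920 kb away, had 23 and 23 at E16.5, and 8 in E12.5 replicate 2. The Myc contacts on the far side were thus below the contact 830 kb away on the Lratd2 side in both E16.5 libraries, although some lie much closer to Myc.

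For Lratd2 the contact with the most read pairs was with chr15:60630001-60640000, 190 kb away, with 46 and 32 at E16.5 and none listed at E12.5. That with chr15:60090001-60100000, 730 kb away, had 33 and 22 read pairs at E16.5, and 11 in E12.5 replicate 1. It was 15.1 and 12.3 times its expected count at E16.5, and 7.25 times in that E12.5 library. The contact with chr15:60650001-60660000, 170 kb away, had 27 and 19 at E16.5, and that with chr15:61090001-61100000, on the Myc side, 24 and 22; neither was listed at E12.5.

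The listed interactions of both genes were long. The median distance for Myc was 810 and 750 kb at E16.5, against 830 and 835 kb at E12.5. For Lratd2 it was 840 and 685 kb at E16.5, against 725 and 830 kb at E12.5. The Myc medians were lower at E16.5 in both libraries, with a two-sided exact permutation p of 0.333, the smallest possible with 2 against 2, and those of Lratd2 overlapped (exact permutation p = 1). In the whole lists the median was 300 and 290 kb at E16.5 and 260 and 260 kb at E12.5.

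At 700 kb or more lay 31 of 48 and 37 of 64 Myc interactions at E16.5, and 8 of 9 and 9 of 10 at E12.5. For Lratd2 it was 16 of 19 and 16 of 34 at E16.5, and 2 of 2 and 2 of 2 at E12.5. In the whole lists 12.4% and 11.2% of interactions were that long at E16.5, and 9.47% and 9.20% at E12.5. Over all 4 libraries, 2.12% of the 2448 gene-end bins had a larger median distance than Myc (810 kb) and 4.98% a larger one than Lratd2 (730 kb), while the median over bins was 250 kb. The nearest partner lay at 220 kb for Myc and at 120 kb for Lratd2, against 130 kb for the median bin. A nearest partner farther off than that of Myc was found in 23.3% of bins, and than that of Lratd2 in 50.9%. Read pairs per interaction were lower than in the whole lists, with medians for Myc of 15 and 15 at E16.5 and 11 and 13 at E12.5. Over all interactions they were 19 and 19 at E16.5 and 19 and 20 at E12.5. Relative to the authors' expected count the order was the reverse. The median ratio of count to expected was 5.00 and 5.31 for Myc at E16.5, and 5.86 and 6.47 at E12.5. For Lratd2 it was 5.40 and 5.14 at E16.5, and 7.59 and 7.71 at E12.5. Over all interactions it was 3.96 and 4.03 at E16.5, and 3.99 and 4.02 at E12.5. These ratios were not matched for distance or depth, and the FDR limit of 0.01 bounds how low a listed ratio can be. In E12.5 replicate 2 the Myc contact 810 kb away, at 4.83 times its expected count, had an FDR of 0.00985. The medians therefore do not show whether the contacts were stronger than others or differed in strength between stages.

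Most genes around the pair did not pass the threshold. A list of 21 genes of this region, Myc and Lratd2 included, held 20 that matched a protein-coding gene, and 13 of these had a tested bin, 11 bins in all. Without the bins of Myc and Lratd2, 1 of 9 rose, 0 fell and 8 did not pass, against 7.48% higher and 2.21% lower over all bins, and their median log2 change was 0.08 against 0.19 over all bins. The bin of Tmem65, a mitochondrial membrane protein gene, rose with 11 and 11 listed interactions at E16.5, against 1 and 2 at E12.5 (4.18-fold, adjusted p = 0.0477 by edgeR), and it met the minimum sum through E16.5 alone. The bin of Trib1, which lies beyond the Lratd2 partners, had 9 and 17 at E16.5 and 4 and 5 at E12.5 (adjusted p = 0.399). On the other side of Myc, the 6 genes Gsdmc, Gsdmc2, Gsdmc3, Gsdmc4, Cyrib and Asap1 had 0 listed interactions at their best end bin in each library. The next in the list, the adenylyl cyclase gene Adcy8, had 7 and 10 at E16.5 and 2 and 0 at E12.5 (adjusted p = 0.0913). Trib1, Adcy8 and the 6 genes at 0 were named after their values were seen.

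Partners of MYC in its network were mostly below the count needed for a test. Of 14 genes of the MYC, MAX and MLX network 4 had a tested bin, Myc among them. None of the other 3 passed, and their median log2 change was -0.08. Mxi1, which encodes a MAX partner that opposes MYC, had 4 and 9 listed interactions at E16.5, against 0 and 1 at E12.5 (adjusted p = 0.112 by edgeR). Mycn, the family member known for its role in neural progenitors and named here after its values were seen, had 42 and 47 at E16.5, against 31 and 25 at E12.5, a relative log2 change of -0.08 (SE 0.19, adjusted p = 0.898). Whether the changes of Myc and Mycn differ was not tested. Of 6 genes listed as LRAT domain relatives, Lratd2 alone had a tested bin. Its closest relative, Lratd1, had 2 and 4 at E16.5 and 0 and 0 at E12.5, below the minimum.

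Few growth genes that respond to MYC could be tested. Of 24 such genes 6 had a tested bin, of which 1 rose, 1 fell and 4 did not pass, where 7.48% of all bins rose and 2.21% fell. Eif4e, the cap-binding translation factor gene, had 6 and 5 listed interactions at E16.5, against 0 and 0 at E12.5 (adjusted p = 0.0487 by edgeR), and it was tested only through its E16.5 numbers. Ccnd1, the cyclin D1 gene, which shares its bin with LTO1, had 9 and 8 at E16.5, against 14 and 15 at E12.5 (0.354-fold, adjusted p = 0.0233).

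The genes whose numbers were most like those of Myc were Plk2, Runx1t1 and Cadm1, by Euclidean distance over the 4 libraries of log2(number + 1). Plk2 had 45 and 58 listed interactions at E16.5 and 9 and 8 at E12.5 (distance 0.334). Runx1t1 had 48 and 50 at E16.5 and 10 and 9 at E12.5 (0.400), and Cadm1 had 35 and 56 at E16.5 and 12 and 9 at E12.5 (0.629). For Lratd2 they were Srrm4, with 21 and 29 at E16.5 and 1 and 2 at E12.5 (0.641), St3gal1, with 29 and 37 at E16.5 and 3 and 2 at E12.5 (0.727), and Klf6, with 16 and 25 at E16.5 and 2 and 1 at E12.5 (0.762).

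The forebrain markers as a list had listed interactions at both stages, though Neurod6 had 0 and 0 at E12.5. Some markers of neurons, progenitors and non-forebrain tissue passed the threshold, where 7.48% of all bins rose and 2.21% fell. The list sums below add all matched genes of a list, tested or not. Of 12 forebrain markers 11 had a tested bin (2 rose, both of them with the minimum sum met at E16.5 alone, 2 fell and 7 did not pass), with 249 and 212 listed interactions in all at E16.5 and 179 and 171 at E12.5. Of 8 tested neuron bins 5 rose and 0 fell, and all 5 met the minimum sum through E16.5 alone. The neuron list sums were 126 and 124 at E16.5 and 16 and 12 at E12.5. Of 9 radial glia and progenitor bins 0 rose and 4 fell. The progenitor list sums were 156 and 145 at E16.5 and 195 and 180 at E12.5. These lists overlap, and the bins of Tbr1 and Neurod6 are the 2 forebrain bins that rose and also rose among the 5 neuron bins. The Tbr1 bin is shared with Psmd14. The Emx2 bin fell in both the forebrain and the progenitor list. Of 11 non-forebrain bins 0 rose and 5 fell, and 4 of the 5 met the minimum sum through E12.5 alone. Among the 5 are the bins of Hoxb2, Hoxb3 and Hoxb4, which lie close together on chromosome 11 and are not separate loci. The non-forebrain list sums were 53 and 36 at E16.5 and 96 and 66 at E12.5. No bin passed among 2 of meninges and mesenchyme and 1 of blood and microglia, and endothelial genes had 0 tested bins. The list sums were 23 and 10 at E16.5 and 18 and 18 at E12.5 for meninges and mesenchyme. For blood and microglia they were 5 and 2 at E16.5 and 5 and 8 at E12.5. For endothelial genes they were 1 and 0 at E16.5 and 0 and 0 at E12.5. The part of cell composition and depth in the Myc and Lratd2 numbers was not tested.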

How the data were processed

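H3K4me3 PLAC-seq of mouse fetal forebrain was analysed, with 2 libraries at E16.5 and 2 at E12.5. The build was mm10 and the tools included BWA and SAMtools, per the submitters' processing notes. The interaction caller was not given in the sources used here. The authors deposited for each interaction, per the file headers, a read-pair count, the expected count of their model (here called a signal), an FDR (a q-value), and the cluster with its −log10 p and size. The lists hold bin pairs 20 to 1000 kb apart, at a ratio of count to expected of at least 2 and an FDR under 0.01, as tested on the files.

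Gene positions were those of RefSeq on GRCm38.p6, whose chromosomes match mm10; 20661 autosomal genes that encode proteins gave 30805 gene-end bins. Listed interactions per bin (sum of at least 10) and read pairs per contact were fitted with edgeR 4.0.16 in R 4.3.3 (TMM, robust quasi-likelihood, stage as the sole term, Benjamini-Hochberg over all bins or contacts, threshold 0.05). Changes are E16.5 over E12.5, with an SE equal to the size of the change divided by the root of F. The fits were also run on simulated counts, drawn independently for each bin or contact. Such counts lack the clusters of neighbouring interactions in these lists, so that run cannot show how the fits treat clusters. Alternatives, DESeq2 1.42.0 among them, are given in the closing section. Members and gene lists were chosen with earlier results of these data known; the fit over all bins of any kind was added after seeing the data. Named genes followed a rule: the members, their 5 contacts with the most read pairs and any past the threshold, per list those past the threshold and the 2 with the smallest p, the 3 most alike bins and the 5 gene pairs with the most partners shared in all 4 libraries, ties by the sum. The distance bands, the stretches of partners and the genes so marked in the text were chosen after seeing the data. Each gene of a list stands by its better-connected end bin. For contacts common to both replicates and averaging 40 or more read pairs, the ratio of chi-square to degrees of freedom was 1.75 at E16.5 and 1.30 at E12.5, above counting noise alone. The 2 libraries of a stage were therefore not merged as 1 library deposited again, which does not show separate litters.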

Additional observations from a re-analysis of the deposited data

How the results depend on the processing

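The rise of Myc kept its direction under 16 of 16 alternatives and passed the threshold under 13 (log2 change 0.79 to 2.13), and Lratd2 under 16 and 12 (2.03 to 3.36). Below the threshold were Lratd2 with DESeq2 (3.01), Myc and Lratd2 with each cluster counted a single time (0.79 and 2.09), with read pairs (2.13 and 3.36) and over all bins of any kind (1.89 and 3.01). Some passes lay near the threshold. With the quasi-dispersion at 1 or above, edgeR gave an adjusted p of 0.0418 for Myc and 0.0493 for Lratd2. On lists of equal length it gave 0.0471 for Myc and 0.0190 for Lratd2, and at an FDR under 0.0001 it gave 0.0425 for both. Gene-end bins past the threshold numbered 237, against 27 with DESeq2, 24 with the quasi-dispersion at 1 or above, 81 with lists of equal length, 65 at an FDR under 0.0001, 576 with the whole gene body, and 87 to 128 without 1 replicate. edgeR called 0 with clusters counted a single time (89 at an unadjusted p under 0.05), 0 with read pairs (1349) and 0 over all bins (939); DESeq2 was not run on these tables. The replicate block called 384 bins and left Myc (1.80) and Lratd2 (2.91) past the threshold. The log2 difference of replicate 1 from replicate 2 at E16.5 correlated with that at E12.5 at 0.0992 over bins and 0.128 over contacts. The libraries share a replicate number, and no pairing is stated.

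The Myc contact 830 kb away lost its call with DESeq2 (1.31), the expected count as an offset (1.18) and contacts listed in at least 1 library of each stage (1.35). In the last of these settings, contacts outside a list were entered as if they had no read pairs, so it is not a fair check. The contact 820 kb away was -0.22 without E16.5 replicate 2, in a range of -0.22 to 0.59. Contacts past the threshold numbered 719, against 98 with DESeq2, 18 with the offset, 0 with contacts listed in 1 library of each stage (935 at an unadjusted p under 0.05), and 274 to 537 without 1 replicate; the replicate block called 939. The shared partner bins, 1 in all, became 0 with lists of equal length or summits alone, 3 with 1 bin of tolerance, and 0 to 1 without 1 library, with 0 when E16.5 replicate 2 was left out. The median distance of Myc was -52.5 kb at E16.5 relative to E12.5, -17.5 at the stricter FDR, -12.5 with equal lists, and -82.5 to -22.5 without 1 replicate (-22.5 without E16.5 replicate 2, -82.5 without E16.5 replicate 1). The cause of these shifts was not tested. Depth is unknown, and no contact outside the lists has a value.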
